A study of Rattus norvegicus with 12 samples.

Results

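The genes described here make cholesterol and fatty acids, sense the sterol level, and move cholesterol out of or within cells. They are 31 rat genes chosen by name, of 15639 named genes on the array, and 30 of them had a probe. Srebf1, which encodes the SREBP-1 transcription factors, had no probe named for it and is not analysed here. The other 30 all passed the filter on dim probes, which asked that some group of 3 arrays be well above background throughout. Of these, 29 were well above background on all 12 arrays. Scd, the stearoyl-CoA desaturase gene, was so on 8 arrays, 1 of 3 in each water group and 3 of 3 in each cisplatin group.

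Total RNA of the renal cortex came from 12 male Sprague-Dawley rats of the Crl:CD(SD) stock, bought at 5 weeks of age, with 1 array for each animal. In the gavage experiment 3 rats received cisplatin by gavage at 3.75 mg/kg/day for 4 weeks and 3 received water. In the intravenous experiment 3 rats received cisplatin by intravenous injection at 0.75 mg/kg/day for 4 weeks and 3 received water. Cisplatin, a platinum compound used against tumours, forms cross-links in DNA and is toxic to the kidney tubule. Route, dose and experiment changed together, so their parts in any difference between the experiments cannot be told apart. The dose is that on each sample's label, while the protocol shared by all samples gives 3.75 mg/kg/day for the intravenous animals too. The series asks how cisplatin changes gene expression in the rat renal cortex. The 3 animals of a group are biological replicates per the labels.

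Cells build cholesterol from acetyl-CoA through mevalonate, isoprenoids and squalene to lanosterol and then, by removal of methyl groups and shifts of double bonds, to cholesterol. When sterols are low in the endoplasmic reticulum, SCAP carries the SREBP factors to the Golgi, where they are cut and released to switch on the genes of synthesis. When sterols are high, the INSIG proteins hold SCAP back, and oxysterols activate the LXR receptors, which switch on the exporters ABCA1 and ABCG1. Fatty acids are built from the same acetyl-CoA pool, and the fatty acid genes are mainly under SREBP-1 and LXR. Proximal tubule cells, which make up most of the cortex, burn fatty acids for energy and take up lipoproteins and filtered proteins.

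The synthesis genes did not move as a block in either experiment, while both cholesterol exporters rose. All changes below are log2 differences between cisplatin and the water group of the same experiment, with their standard errors (n = 3 per group), tested with limma across 32215 features. Values on single arrays are the processed signal in units of that array's 75th percentile. With gavage cisplatin 6 of the 30 measured genes rose, 10 fell and 14 did not pass an adjusted p of 0.05, where 59.6% of all features passed, 29.5% rising and 30.2% falling. Intravenous cisplatin gave 6 rises, 11 falls and 13 that did not pass, against 58.7% of all features, 26.1% rising and 32.6% falling. The shares of the 30 that passed lay near these backgrounds. The counts of the shorter lists below are to be read beside the same shares. The median change of the 30 was -0.10 with gavage and -0.09 with intravenous cisplatin, beside 0.00 and -0.07 over all features.

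The experiments have no animal in common. The call had the same direction in both for 14 genes, of which 6 rose and 8 fell, and 0 had opposite calls. The 14 are 87.5% of the 16 gavage calls and 82.4% of the 17 intravenous calls, beside 76.9% and 78.1% over all features. The 6 rises in both were Mvk, Pmvk, Sqle, Cyp51, Abca1 and Abcg1. The 8 falls in both were Lss, Tm7sf2, Ebp, Dhcr7, Insig2, Nr1h3, Stard4 and Acly. These directions are relative to the bulk of the array. The 75th percentile itself was 1439 to 1532 on gavage cisplatin arrays against 969.7 to 1020 on their water arrays, and with intravenous cisplatin it was 1387 to 1407 against 1008 to 1055. Scaled to the Agilent spike-in RNAs instead, the median of all features moved to 0.66 and 0.49, and of all calls 86.4% and 85.0% were rises, in place of 49.4% and 44.5%. On that scale 22 of the 30 rose and 3 fell with gavage, where 62.1% of all features rose and 9.81% fell. With intravenous cisplatin 16 rose and 0 fell, beside 53.6% and 9.47%. Of the 14 shared calls the 6 rises held under both scalings, while Lss, Tm7sf2 and Ebp turned positive in both experiments and Acly did so with gavage.

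**Figure D1:**
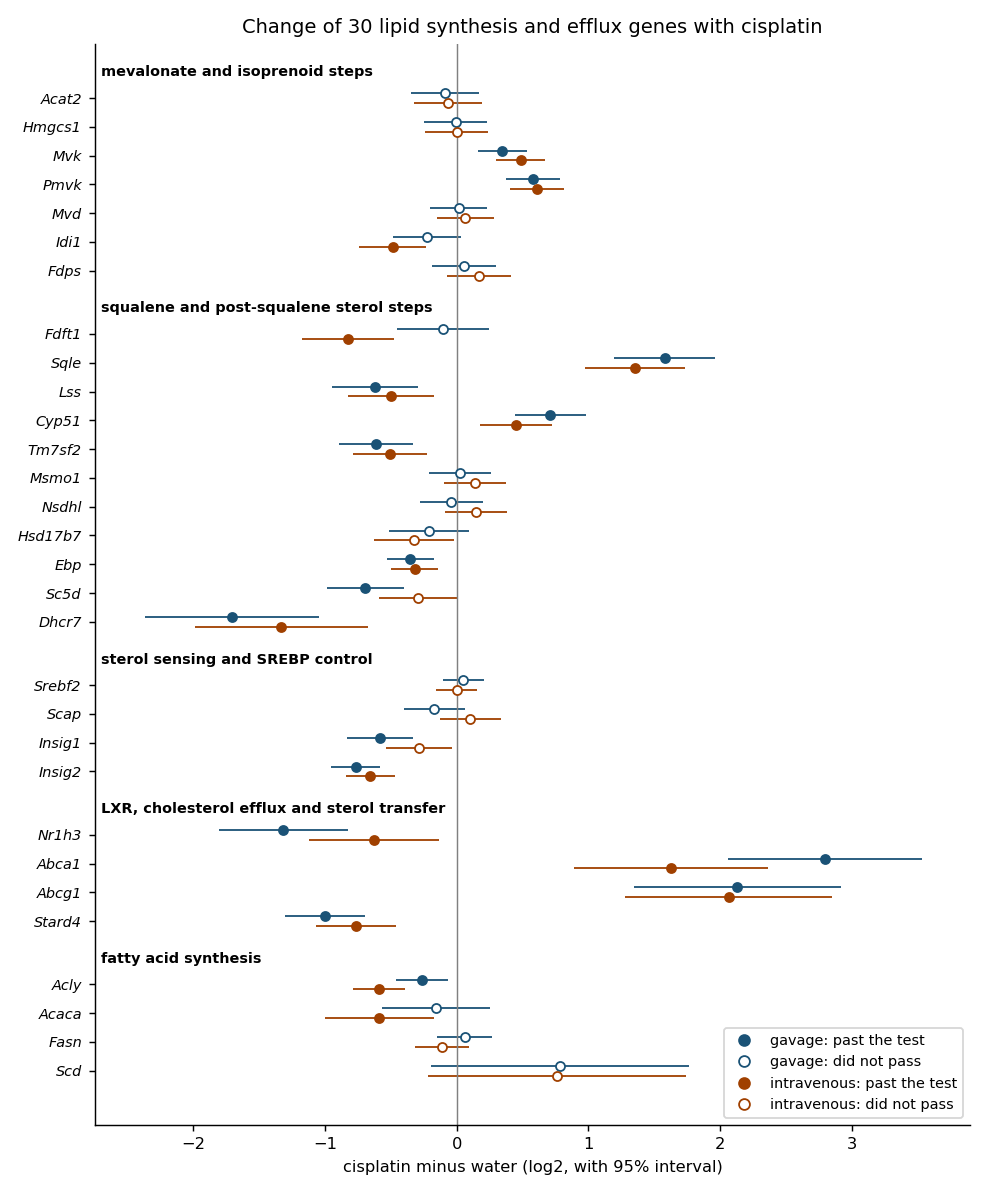
Change of each of the 30 genes with gavage (blue) and intravenous (brown) cisplatin, as log2 of cisplatin over water with its 95% interval (n = 3 per group), ordered by role; filled points passed the limma test. The exporters Abca1 and Abcg1 lie farthest to the right and Dhcr7 farthest to the left in both experiments; on the spike-in scale the called falls of Lss, Tm7sf2, Ebp, Insig1 and Acly turn positive with gavage and those of Idi1, Lss, Tm7sf2 and Ebp with intravenous cisplatin.

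**Figure D2:**
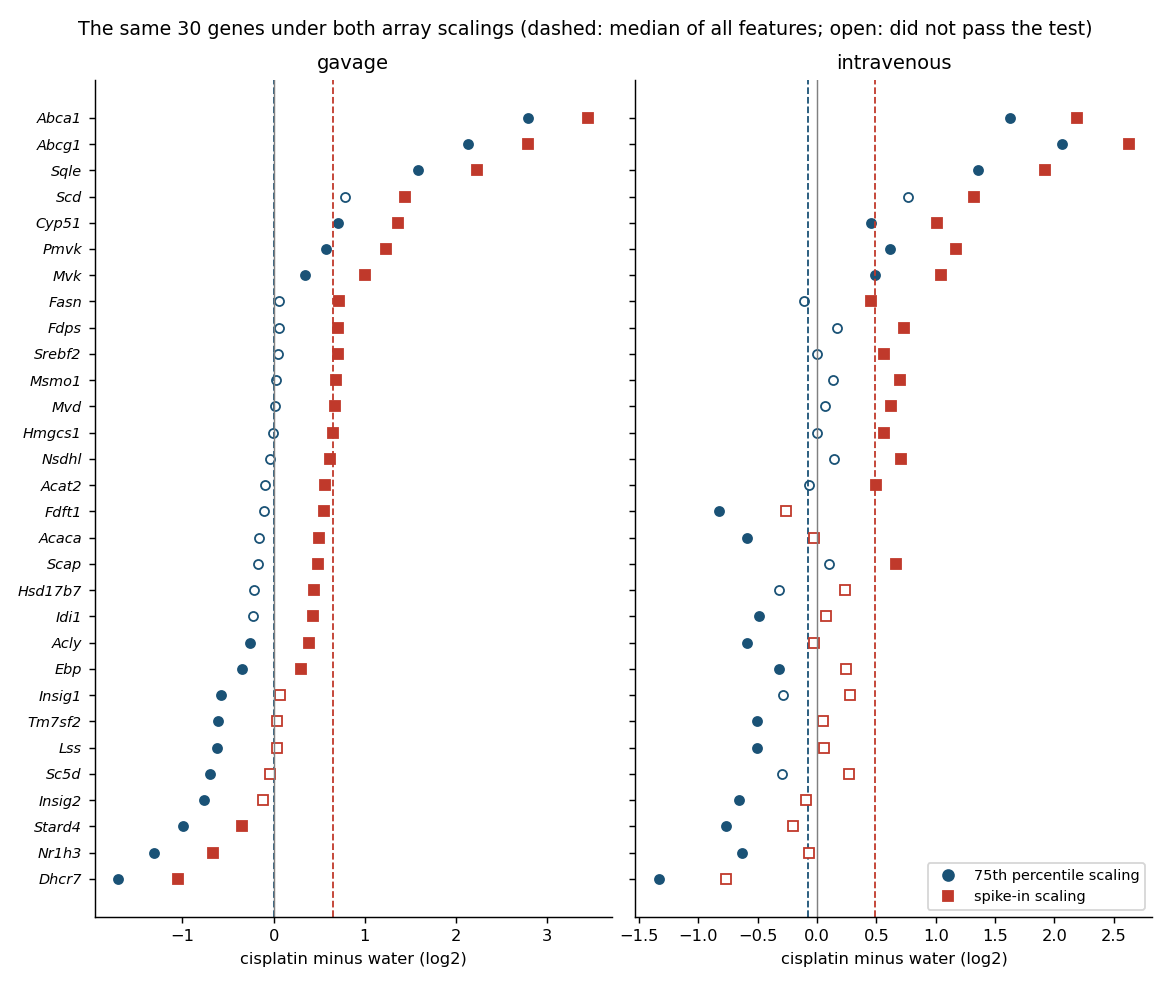
The same 30 changes (log2 of cisplatin over water, n = 3 per group) with arrays scaled to their 75th percentile (circles) or to spike-in RNAs (squares); open symbols did not pass the test and dashed lines give the median of all features. Both scalings keep the order of the genes and differ by a nearly fixed shift, and with gavage Dhcr7, Nr1h3 and Stard4 still fell on the spike-in scale.

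Marker genes of the cell types of the cortex moved with cisplatin too. Over all features 29.5% rose and 30.2% fell with gavage, and 26.1% and 32.6% with intravenous cisplatin. All 8 proximal tubule markers fell with gavage and 7 of 8 with intravenous cisplatin. Their summed level was 1667 to 1981 and 1559 to 1865 in the gavage and intravenous water groups, 87.9 to 250 with gavage and 171 to 684 with intravenous cisplatin. All 6 distal nephron markers, which included the thick ascending limb, fell in both, from sums of 495 to 601 on the water arrays to 7.75 to 50.7 on the cisplatin arrays. Of the macrophage markers 10 of 11 rose with gavage and 6 of 11 with intravenous cisplatin, with sums of 89.6 to 97.1 and 91.1 to 167 in the water groups and 172 to 245 and 173 to 209 with cisplatin. Of the fibroblast and matrix markers 7 of 7 tested rose with gavage and 6 of 7 with intravenous cisplatin. The lists for cycling cells (4 and 5 of 5 tested) and adipocytes (3 and 4 of 5) also gave rises. Of the adipocyte markers 1 fell in each experiment. The adipocyte sums were 2.05 to 2.27 with gavage water and 3.07 to 3.37 with gavage cisplatin, which did not overlap, and 2.86 to 3.13 and 2.63 to 4.44 in the intravenous water and cisplatin groups, which did. Falls were called for 4 and 4 of 6 collecting duct, 5 and 4 of 6 podocyte and 3 and 2 of 5 endothelial markers with gavage and intravenous cisplatin, and of 6 lymphocyte markers 0 and 2 rose. The collecting duct sums overlapped between water and cisplatin. They were 140 to 173 with gavage water, 113 to 213 with gavage cisplatin, 122 to 134 with intravenous water and 68.9 to 157 with intravenous cisplatin. The 8 adrenal markers, of which Cyp11b2 alone was dim on all 12 arrays, summed to 1.45 to 1.67 with gavage water and 2.96 to 3.81 with gavage cisplatin. In the intravenous experiment they summed to 2.08 to 3.00 with water and 2.45 to 3.52 with cisplatin, and of 4 tested 2 rose and 2 fell in each experiment. The 8 hepatocyte markers, of which Tat alone was dim on all 12 arrays, summed to 69.2 to 91.9 on the water arrays and 2.85 to 54.8 on the cisplatin arrays. Of 4 tested, 1 rose and 2 fell with gavage and 1 rose and 1 fell with intravenous cisplatin. In bulk tissue fewer cells of a type and less RNA per cell cannot be told apart, and the part of cell makeup in the changes below was not tested.

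Promoter sequence was at hand for 24 of the 31 genes, as the 250 bases before the annotated start in RefSeq's GRCr8 assembly. Both strands were searched for 5 elements, with overlapping matches allowed. The sterol regulatory element, the site of SREBP binding, was searched as TCACNCCAC, which occurred in 0 of the 24 windows, beside 0.976% of all 27457 promoters. The CCAAT box, read by NF-Y, was in 17 of 24 (70.8%, against 34.3% of all promoters and 35.6% of 10266 promoters of tested genes). The GC box GGGCGG, read by Sp1-type factors, was in 19 of 24 (79.2%, against 32.4% and 53.6%). The E-box CACGTG was in Insig1, Abca1, Sc5d and Scap (16.7%, against 5.80% and 7.71%). The LXR-type repeat, a form of the element that LXR and its partner RXR bind, was in Abca1 and in no other of the 24 (0.193% of all promoters). Matches are descriptions of these letters in these windows, and no match in a window says nothing about the factor. The 4 windows below, each 5′ to 3′ on the gene's own strand, are those of an exporter that rose, a sterol sensor that fell with gavage, and a rise and a fall among the synthesis enzymes. They were picked after the values were seen. Capitals mark the E-box and then the LXR-type repeat (reverse strand) in Abca1, the CCAAT box (reverse strand) and then the E-box in Insig1, and GC boxes in Cyp51 (reverse strand) and Dhcr7, where 2 of them overlap. The GC boxes of Abca1 and Insig1 are left in lower case. The windows are chr5:72596474-72596723 (minus strand), chr4:8057770-8058019 (minus), chr4:30991443-30991692 (plus) and chr1:208444184-208444433 (plus).
Abca1: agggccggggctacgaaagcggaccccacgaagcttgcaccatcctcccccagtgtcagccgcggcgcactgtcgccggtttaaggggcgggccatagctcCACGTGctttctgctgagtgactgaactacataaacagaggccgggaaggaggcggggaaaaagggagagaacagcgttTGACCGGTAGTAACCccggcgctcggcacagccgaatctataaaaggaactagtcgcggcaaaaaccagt
Insig1: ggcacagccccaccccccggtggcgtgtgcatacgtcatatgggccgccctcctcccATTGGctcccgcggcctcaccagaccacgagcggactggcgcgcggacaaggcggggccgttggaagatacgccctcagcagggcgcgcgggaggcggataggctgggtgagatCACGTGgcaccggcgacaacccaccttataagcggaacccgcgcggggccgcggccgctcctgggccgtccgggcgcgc
Cyp51: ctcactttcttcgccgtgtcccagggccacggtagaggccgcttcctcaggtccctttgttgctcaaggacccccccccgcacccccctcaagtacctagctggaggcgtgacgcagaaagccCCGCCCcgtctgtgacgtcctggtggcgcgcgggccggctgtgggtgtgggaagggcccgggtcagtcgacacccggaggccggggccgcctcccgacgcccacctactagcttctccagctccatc
Dhcr7: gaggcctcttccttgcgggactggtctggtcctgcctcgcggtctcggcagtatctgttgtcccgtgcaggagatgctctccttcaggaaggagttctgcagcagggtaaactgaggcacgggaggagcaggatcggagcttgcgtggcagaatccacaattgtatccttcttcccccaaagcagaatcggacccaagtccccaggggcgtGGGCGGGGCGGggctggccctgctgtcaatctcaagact

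**Figure D3:**
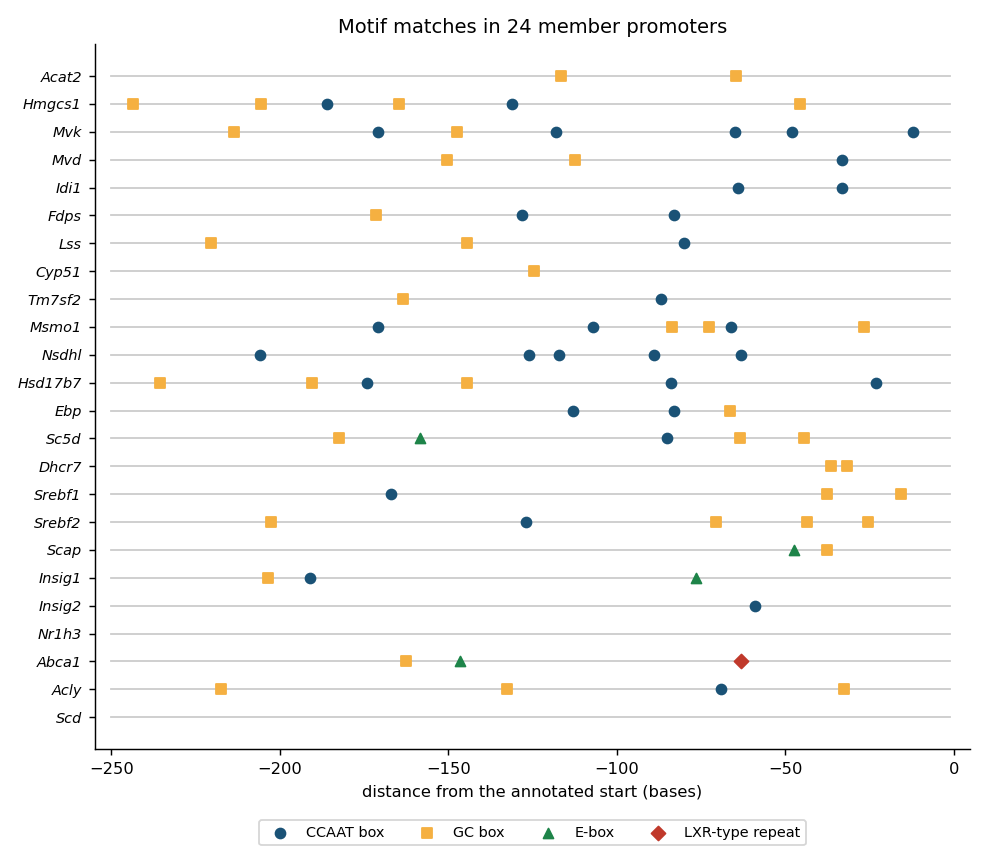
Positions of motif matches in the 24 promoters, as the distance in bases from the annotated start (0) on the x axis, 1 line per gene; circles are CCAAT boxes, squares GC boxes, triangles E-boxes and the diamond the LXR-type repeat. CCAAT boxes are in 17 of the 24 promoters and the LXR-type repeat is in Abca1 alone.

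Among the 7 genes of the mevalonate and isoprenoid steps, the kinase genes Mvk and Pmvk rose in both experiments and Idi1 fell in the intravenous experiment. The list gave 2 rises and 0 falls with gavage and 2 rises and 1 fall with intravenous cisplatin, with medians of 0.01 and 0.06. Over all features 29.5% rose and 30.2% fell with gavage, and 26.1% and 32.6% with intravenous cisplatin. Pmvk, which adds the second phosphate to mevalonate, read 1.37, 1.24 and 1.17 on the gavage water arrays and 1.95, 1.82 and 1.86 on the gavage cisplatin arrays. In the intravenous experiment it read 1.35, 1.25 and 1.23 with water and 1.77, 2.05 and 2.06 with cisplatin. All 6 cisplatin arrays lay above all 6 water arrays. The change was 0.58 ± 0.09 (1.49-fold, limma adjusted p = 4.00e-04) and 0.61 ± 0.09 (1.53-fold, adjusted p = 3.56e-04). Mvk, the mevalonate kinase of the step before, rose by 0.34 ± 0.08 and 0.49 ± 0.08 (adjusted p = 0.00512 and 7.69e-04), again with no overlap between cisplatin and water arrays. The per-array values of Pmvk, and of other genes whose change stayed under 1 in both experiments, were added after they were seen.

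The entry and exit of this stretch showed little movement on the array's own scale. Acat2, the cytosolic thiolase that joins acetyl-CoA units, differed by -0.09 ± 0.12 and -0.06 ± 0.12, and Hmgcs1, the HMG-CoA synthase, by -0.01 ± 0.11 and 0.00 ± 0.11 (95% intervals -0.24 to 0.23 and -0.24 to 0.24). With spike-in scaling both passed as rises, at 0.57 and 0.50 for Acat2 and 0.65 and 0.56 for Hmgcs1. Mvd, which makes isopentenyl pyrophosphate, differed by 0.01 and 0.06, and Fdps, which makes farnesyl pyrophosphate, by 0.05 and 0.17, none past the test. Fdps passed with intravenous cisplatin under quantile normalization (0.32) and after normexp background correction (0.33). Idi1, the isomerase between them, fell with intravenous cisplatin by 0.49 on the log2 scale (SE 0.12, adjusted p = 0.00479) and differed by -0.22 ± 0.12 with gavage (adjusted p = 0.119), but on the spike-in scale both were positive, at 0.07 and 0.43. The 3 Idi1 probes had the same sign in both experiments.

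The 11 genes from squalene onward went both ways, and the largest moves of the synthesis pathway in both directions were here. Of the 11, 2 rose and 5 fell in each experiment, with medians of -0.21 and -0.32. Over all features 29.5% rose and 30.2% fell with gavage, and 26.1% and 32.6% with intravenous cisplatin. Sqle encodes squalene epoxidase, a rate-limiting oxygen-using step. It read 3.24, 2.75 and 2.599 with gavage water and 9.31, 8.02 and 8.25 with gavage cisplatin. The intravenous arrays read 2.51, 3.05 and 3.04 with water and 9.55, 6.93 and 5.87 with cisplatin. Every cisplatin array was above every water array, and the highest was intravenous cisplatin replicate 1. Sqle rose by 1.58 ± 0.17 with gavage (2.99-fold, adjusted p = 3.28e-05) and by 1.36 ± 0.17 with intravenous cisplatin (2.56-fold, adjusted p = 1.22e-04). A second Sqle probe gave 1.58 and 1.36.

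Cyp51, the demethylase that acts on lanosterol, was the other rise. It read 0.917, 0.832 and 0.718 with gavage water against 1.31, 1.30 and 1.41 with gavage cisplatin. The intravenous values were 0.845, 0.851 and 0.824 with water and 1.32, 1.17 and 0.978 with cisplatin. Cisplatin arrays lay above water arrays within each experiment, with intravenous replicate 3 closest to its controls. The rises were 0.71 ± 0.12 (1.64-fold, adjusted p = 6.16e-04) and 0.45 ± 0.12 (1.37-fold, adjusted p = 0.00944). Sqle and Cyp51 use molecular oxygen and electrons from the same reductase, and in the pathway they stand on either side of Lss.

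Dhcr7, the last reductase on one route to cholesterol, had the largest fall of the 30. Its arrays read 7.19, 6.82 and 6.09 with gavage water and 2.51, 2.39 and 1.44 with gavage cisplatin. They read 8.15, 8.99 and 7.72 with intravenous water and 1.98, 3.98 and 4.51 with intravenous cisplatin. All 6 cisplatin arrays lay below all 6 water arrays, and the lowest in each experiment, gavage replicate 3 and intravenous replicate 1, also had the lowest sum of proximal tubule markers of its group (87.9 and 171). Gavage replicates 1 and 2 stood in the opposite order to their sums (174 and 250). Dhcr7 fell by 1.71 on the log2 scale with gavage (SE 0.30, 3.26-fold, adjusted p = 6.64e-04) and by 1.33 with intravenous cisplatin (SE 0.30, 2.52-fold, adjusted p = 0.00335). On the spike-in scale the change was -1.05 with gavage (adjusted p = 0.0123) and -0.77 with intravenous cisplatin, which no longer passed (adjusted p = 0.0551).

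The remaining falls were smaller and several depended on the scale. Lss, the cyclase that makes lanosterol, fell by 0.62 and by 0.50 (SE 0.15, adjusted p = 0.00422 and 0.0138), Tm7sf2, a sterol C14 reductase, by 0.61 and 0.51, and Ebp, the sterol isomerase, by 0.35 and 0.32, but on the spike-in scale all 3 were positive in both experiments, between 0.03 and 0.30. The Lss call with intravenous cisplatin was lost without water replicate 2 (-0.42, adjusted p = 0.0552) and with the mean of its 2 probes (-0.27), the second of which gave -0.48 and -0.04. Ebp passed with gavage under neither quantile normalization (-0.12) nor normexp (-0.11), and with intravenous cisplatin it did not pass under quantile normalization (-0.13). Sc5d, a desaturase late in the pathway, fell by 0.70 with gavage (SE 0.13, adjusted p = 0.00116, -0.04 on the spike-in scale) and differed by -0.29 ± 0.13 with intravenous cisplatin (adjusted p = 0.0782, 0.27 on the spike-in scale). Without intravenous water replicate 3, whose Sc5d value of 1.42 was the lowest of its group, that difference was -0.46 and passed (adjusted p = 0.00303). With all arrays it passed as a fall after normexp and with array weights.

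Another 3 enzymes of this stretch did not pass in either experiment on the array's scale, but each passed under another one. Msmo1, which starts the removal of the C4 methyl groups, read between 13.96 and 18.57 on all 12 arrays and differed by 0.02 ± 0.11 and 0.14 ± 0.11. It passed as a rise with gavage after normexp (0.25), with intravenous cisplatin under quantile normalization (0.33) and after normexp (0.32), and in both on the spike-in scale (0.68 and 0.70). Nsdhl, the dehydrogenase of the same process, differed by -0.04 and 0.15, and passed on the spike-in scale at 0.61 and 0.71, with the sign turned for gavage. Hsd17b7, the ketoreductase that ends it, differed by -0.21 and -0.32 (adjusted p = 0.203 and 0.0639). The Hsd17b7 difference with intravenous cisplatin passed without water replicate 1 (-0.45), without cisplatin replicate 2 (-0.41) and under quantile normalization (-0.36). On the spike-in scale Hsd17b7 was positive in both, at 0.44 with gavage, which passed, and 0.24 with intravenous cisplatin, which did not.

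Fdft1, the squalene synthase at the head of this stretch, differed most between experiments relative to its spread on the probe that stands for it. Its gavage arrays read 7.88, 7.88 and 7.001 with water and 5.28, 8.14 and 8.11 with cisplatin. The intravenous arrays read 10.3, 10.8 and 9.92 with water and 5.36, 6.32 and 5.83 with cisplatin. Intravenous cisplatin lay below its water group throughout, while in the gavage experiment replicate 1 was below and replicates 2 and 3 above all water arrays. Gavage cisplatin replicate 1 was the only cisplatin array that shared slide 1 with the gavage water arrays, and replicates 2 and 3 were on slide 2. Fdft1 fell by 0.83 with intravenous cisplatin (SE 0.16, 1.77-fold, adjusted p = 0.00134, -0.26 on the spike-in scale) and differed by -0.11 ± 0.16 with gavage (adjusted p = 0.583). Within slide 1, the difference between that 1 cisplatin array and the mean of the water arrays was -0.52. The effect in the intravenous experiment minus that with gavage was -0.72 ± 0.22 (unadjusted p = 0.00853, adjusted p = 0.128), and without gavage cisplatin replicate 1 it was -0.93 (adjusted p = 0.00336). A second Fdft1 probe gave -1.48 with gavage and -1.25 with intravenous cisplatin, a difference of effects of 0.23. The probes thus disagree on the gavage change and on the sign of the difference. With the mean of both probes Fdft1 passed as a fall with gavage.

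**Figure D4:**
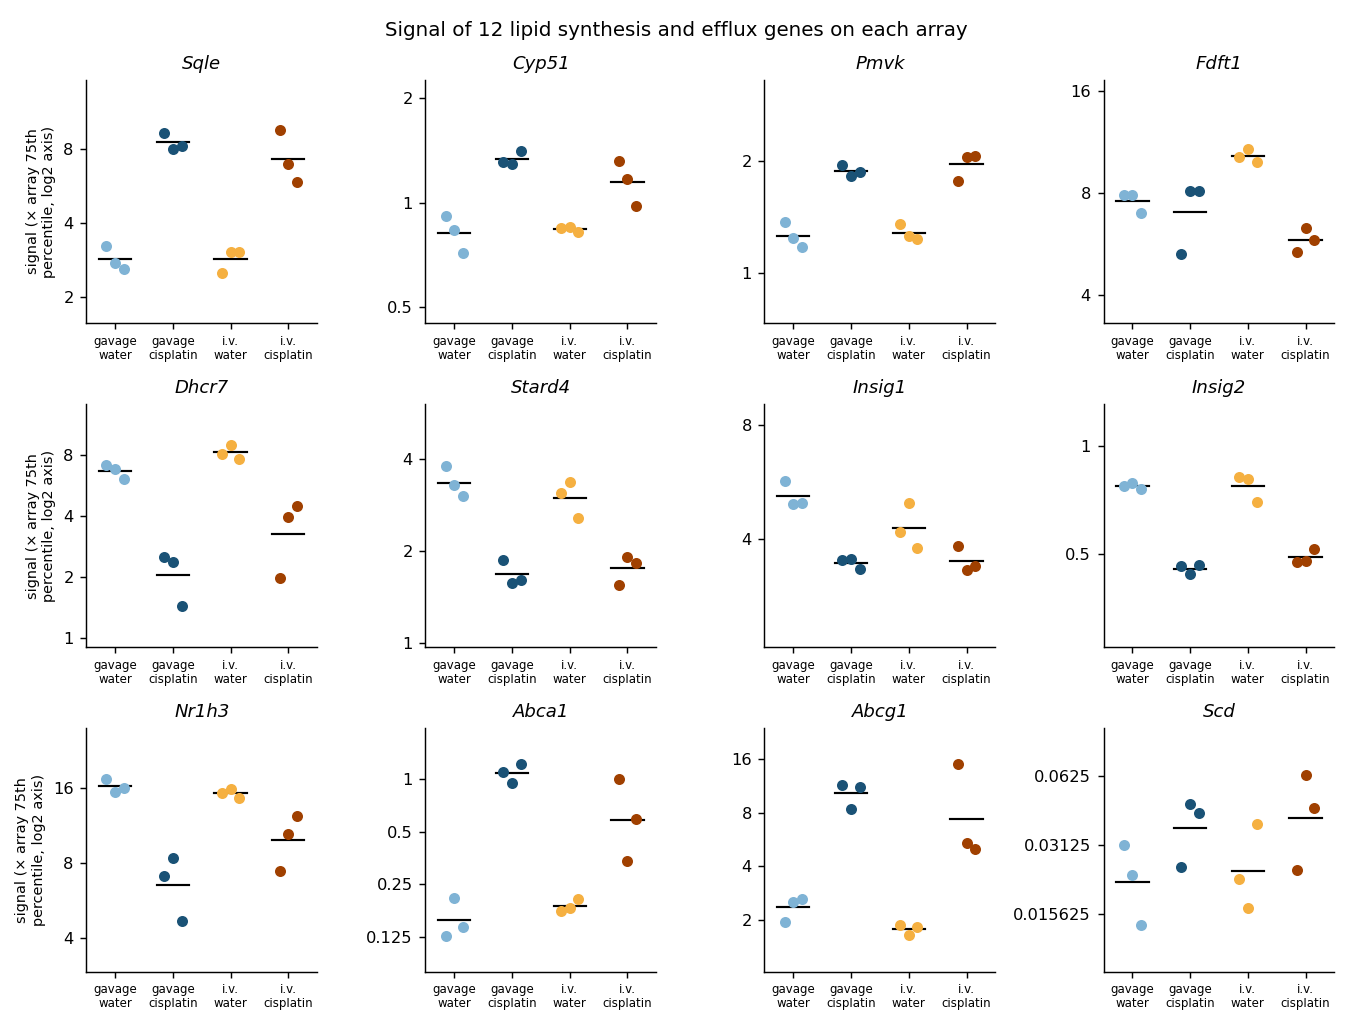
Signal of 12 of the genes on each of the 12 arrays, in units of the array's 75th percentile on a log2 axis, 1 panel per gene; points are animals in the order of their replicate numbers and bars are group means of the log2 values (n = 3). Sqle, Abca1 and Abcg1 separate all cisplatin from all water arrays upward and Dhcr7 and Nr1h3 downward, while the Fdft1 groups of the gavage experiment and the Scd groups overlap.

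Insig2 fell in both experiments and Insig1 with gavage, while the probes that stand for Srebf2 and Scap did not pass in either on the array's own scale. Of the 4 measured genes of sterol sensing, 2 fell with gavage and 1 with intravenous cisplatin, and 0 rose. Of all features 30.2% and 32.6% fell and 29.5% and 26.1% rose. Insig2 encodes the INSIG form whose transcription does not depend on SREBP in most tissues. It read 0.775, 0.790 and 0.760 with gavage water and 0.461, 0.439 and 0.465 with gavage cisplatin. The intravenous arrays read 0.818, 0.806 and 0.696 with water and 0.475, 0.479 and 0.516 with cisplatin. The cisplatin and water arrays did not overlap. Insig2 fell by 0.77 and by 0.66 (SE 0.08, 1.70-fold and 1.58-fold, adjusted p = 3.21e-05 and 1.22e-04), and did not pass on the spike-in scale (-0.11 and -0.09).

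Insig1, an SREBP target and the sensor shown by its promoter above, read 5.70, 4.95 and 4.99 with gavage water and 3.53, 3.55 and 3.35 with gavage cisplatin. Its intravenous values were 4.17, 4.99 and 3.79 with water and 3.85, 3.32 and 3.40 with cisplatin, and there the groups overlapped. It fell by 0.58 with gavage (SE 0.11, adjusted p = 0.00139), a value of 0.07 on the spike-in scale, and differed by -0.29 ± 0.11 with intravenous cisplatin (adjusted p = 0.0514, 0.28 on the spike-in scale). That difference lay at the threshold and passed without intravenous water replicate 3 (-0.38) or cisplatin replicate 1 (-0.35). With all arrays it passed as a fall when only probes well above background on all 12 arrays were kept and with the mean of the Insig1 probes. It did so too with slide as a random block and with array weights. All 4 Insig1 probes had the same sign in both experiments. Srebf2, which encodes SREBP-2, differed by 0.05 ± 0.07 and 0.00 ± 0.07, with 95% intervals of -0.11 to 0.21 and -0.15 to 0.16. Scap differed by -0.17 ± 0.10 and 0.10 ± 0.10, and passed with gavage without cisplatin replicate 1 (-0.27, adjusted p = 0.0364). With spike-in scaling Srebf2 (0.71 and 0.56) and Scap (0.48 and 0.66) passed as rises in both experiments, Scap with the sign turned for gavage. The transcript level of Srebf2 and Scap does not show how much of the SREBP-2 protein is cut.

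Both exporters rose, while the gene of an LXR receptor known to drive them fell. Abca1 loads cholesterol and phospholipid onto apolipoprotein A-I. It read 0.127, 0.209 and 0.143 with gavage water and 1.1, 0.943 and 1.22 with gavage cisplatin. The intravenous arrays read 0.178, 0.185 and 0.207 with water and 1.00, 0.338 and 0.587 with cisplatin. Every cisplatin array was above every water array, but intravenous cisplatin replicates 2 and 3 were below all 3 gavage cisplatin arrays. Abca1 rose by 2.79 ± 0.33 with gavage (6.93-fold, adjusted p = 5.73e-05) and by 1.62 ± 0.33 with intravenous cisplatin (3.08-fold, adjusted p = 0.00205). The effect in the intravenous experiment minus that with gavage was -1.17 ± 0.47 (95% interval -2.21 to -0.13, adjusted p = 0.211), and without intravenous cisplatin replicate 1 it was -1.56 and passed (adjusted p = 0.0377).

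Abcg1, which hands cholesterol to HDL particles, read 1.95, 2.52 and 2.63 with gavage water and 11.5, 8.45 and 11.3 with gavage cisplatin. In the intravenous experiment it read 1.87, 1.63 and 1.82 with water and 15.04, 5.39 and 5.02 with cisplatin. No water array reached any cisplatin array, and intravenous cisplatin replicate 1 stood above the other 11 arrays. Abcg1 rose by 2.13 ± 0.35 (4.38-fold, adjusted p = 4.89e-04) and 2.06 ± 0.35 (4.18-fold, adjusted p = 7.19e-04). Macrophages use both exporters. The macrophage marker sums of replicates 1, 2 and 3 were 210, 172 and 245 with gavage cisplatin, where Abca1 had the same order and Abcg1 was also lowest in replicate 2. With intravenous cisplatin the sums were 196, 209 and 173, where replicate 1 was highest for both exporters. The part of macrophages in either rise was not tested.

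Nr1h3, which encodes LXR-alpha, fell as the exporters rose. It read 17.5, 15.4 and 16.0 with gavage water and 7.09, 8.41 and 4.69 with gavage cisplatin. The intravenous values were 15.3, 15.9 and 14.6 with water and 7.44, 10.49 and 12.3 with cisplatin. All cisplatin arrays were below all water arrays, and within each cisplatin group the order of the 3 animals was the same as for the proximal tubule marker sum (174, 250 and 87.9 with gavage, 171, 520 and 684 with intravenous cisplatin). Other falls differed: with gavage Insig2, Lss and Stard4 were each lowest in replicate 2, where that sum was highest. With intravenous cisplatin Insig2 and Stard4 were lowest in replicate 1, as that sum was, and Lss in replicate 3, where the sum was highest. The part of the tubule in these falls was not tested. Nr1h3 fell by 1.32 with gavage (SE 0.22, 2.49-fold, adjusted p = 5.32e-04). With intravenous cisplatin it fell by 0.63 (SE 0.22, 1.55-fold, adjusted p = 0.0314), a call that was lost without water replicate 1 (-0.63, adjusted p = 0.0702), water replicate 2 (-0.60, 0.0802), water replicate 3 (-0.66, 0.0555), cisplatin replicate 1 (-0.42, 0.115) or cisplatin replicate 2 (-0.67, 0.0518). On the spike-in scale it was -0.66 with gavage, which passed, and -0.07 with intravenous cisplatin, which did not, and quantile normalization gave -0.44 there (adjusted p = 0.120). The difference between the experiments was 0.69 ± 0.31 (adjusted p = 0.261).

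Stard4, a carrier that moves cholesterol between membranes and is itself an SREBP target, read 3.79, 3.29 and 3.02 with gavage water and 1.87, 1.58 and 1.61 with gavage cisplatin. It read 3.09, 3.38 and 2.56 with intravenous water and 1.55, 1.92 and 1.83 with intravenous cisplatin. The groups did not overlap in either experiment. Stard4 fell by 1.00 (SE 0.14, 2.00-fold, adjusted p = 1.45e-04) and by 0.77 (1.70-fold, adjusted p = 9.39e-04), values of -0.34 and -0.20 on the spike-in scale, where the gavage fall passed. A second Stard4 probe gave -0.78 and -0.19.

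The 4 fatty acid genes gave 0 rises, with 1 fall with gavage and 2 with intravenous cisplatin. Of all features 29.5% and 26.1% rose and 30.2% and 32.6% fell. Acly, which makes cytosolic acetyl-CoA from citrate and so feeds both pathways, read 13.3, 13.8 and 12.5 with gavage water and 10.6, 10.95 and 11.4 with gavage cisplatin. It read 13.8, 13.9 and 15.2 with intravenous water and 10.4, 9.57 and 8.64 with intravenous cisplatin. Cisplatin arrays were below water arrays in both experiments. Acly fell by 0.59 with intravenous cisplatin (SE 0.09, 1.51-fold, adjusted p = 3.45e-04, -0.03 on the spike-in scale). With gavage it fell by 0.26 (SE 0.09, adjusted p = 0.0270), a call that was lost without gavage water replicate 1 (-0.26, 0.0682) or 2 (-0.23, 0.0910), without gavage cisplatin replicate 1 (-0.23, 0.0737) or 2 (-0.26, 0.0598), and with quantile normalization (-0.05), and that turned to 0.39 on the spike-in scale. The difference between the experiments was -0.33 ± 0.13 (unadjusted p = 0.0260, adjusted p = 0.196).

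Acaca, which encodes acetyl-CoA carboxylase 1, was measured by 2 probes that disagreed. The probe that stands for the gene differed by -0.16 ± 0.19 with gavage and fell by 0.59 with intravenous cisplatin (SE 0.19, adjusted p = 0.0198), and the other probe gave 0.51 and 0.91. The mean of both was 0.16 with intravenous cisplatin, and the call was also lost without intravenous water replicate 2 (-0.45, 0.0784) or cisplatin replicate 3 (-0.54, 0.0587). Fasn, the fatty acid synthase, differed by 0.06 ± 0.09 and -0.11 ± 0.09 and read between 2.55 and 3.15 on all 12 arrays. With spike-in scaling Fasn passed as a rise in both, at 0.71 and 0.45. Scd, close to background, read 0.0311, 0.0230 and 0.0141 with gavage water and 0.0251, 0.0472 and 0.0431 with gavage cisplatin. Its intravenous values were 0.0221, 0.0165 and 0.0384 with water and 0.0243, 0.0628 and 0.0450 with cisplatin. The groups overlapped, and Scd differed by 0.78 ± 0.44 and 0.76 ± 0.44 (adjusted p = 0.151 and 0.160). It passed as a rise on the spike-in scale in both (1.44 and 1.33) and, with array weights, with intravenous cisplatin (1.16). Scd met the filter on dim probes only through the cisplatin groups, with 3 arrays well above background in each against 1 in each water group. No conclusion is drawn from these rises. A second Scd probe, well above background on 0 arrays, gave -0.12 and 0.68.

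In the comparison of the experiments limma called 0 of the 30, where 1.19% of all features did. At an unadjusted p under 0.05 there were 3, which were Fdft1, Abca1 and Acly. For Fdft1 the difference was -0.72 on the probe that stands for the gene and 0.23 on its second probe. A p that misses the threshold does not show equal effects. The 95% interval of the difference was -0.76 to 0.32 for Sqle, -0.56 to 1.31 for Dhcr7, -1.17 to 1.04 for Abcg1 and -0.26 to 0.32 for Pmvk. Between the 2 water groups limma called 0 of the 30 and 0% of all features, and 2 genes had an unadjusted p under 0.05, Fdft1 at 0.45 ± 0.16 and Insig1 at -0.28 ± 0.11 (intravenous minus gavage water). Fdft1 passed there without gavage cisplatin replicate 1 (adjusted p = 0.0297), an array that enters that comparison through the shared spread alone.

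The spread of the 30 genes lay close to that of all features in the water groups and below it in the cisplatin groups. The median SD over the 30 was 0.114 and 0.109 in the gavage and intravenous water groups, beside 0.126 and 0.129 over all features. It was 0.127 and 0.123 in the cisplatin groups, beside 0.178 and 0.185. Scd had the highest SD of the 30 in 3 groups and Abcg1 in the intravenous cisplatin group (0.886).

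Further enzymes of sterol and isoprenoid synthesis fell more often than they rose on the array's scale. Of 11 tested of 14, 2 rose and 8 fell with gavage and 1 rose and 5 fell with intravenous cisplatin (2 rose without cisplatin replicate 3), with medians of -0.42 and -0.35. Over all features 29.5% rose and 30.2% fell with gavage, and 26.1% and 32.6% with intravenous cisplatin. Spike-in scaling left 4 rises and 2 falls with gavage and 4 and 1 with intravenous cisplatin. On that scale 62.1% of all features rose and 9.81% fell with gavage, and 53.6% and 9.47% with intravenous cisplatin. Aacs, which activates acetoacetate for sterol synthesis, rose by 2.01 ± 0.13 and 1.56 ± 0.13. Dhdds, the dolichol synthase subunit, fell by 1.41 and by 0.72, and the ubiquinone enzymes Coq2 by 0.89 and 1.02 and Pdss2 by 0.46 and 0.50.

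Of the 10 tested of 12 genes of SREBP processing and sterol sensing, 2 rose and 5 fell in each experiment. Of all features 29.5% and 26.1% rose and 30.2% and 32.6% fell. With gavage 1 rose without water replicate 2, water replicate 3 or cisplatin replicate 3, and with intravenous cisplatin 1 rose without water replicate 1, water replicate 2 or cisplatin replicate 1. Spike-in scaling gave 6 rises and 2 falls with gavage and 5 and 1 with intravenous cisplatin. There 62.1% and 53.6% of all features rose and 9.81% and 9.47% fell. Pgrmc1, a heme-binding membrane protein that binds sterol enzymes, fell by 1.35 and by 1.02. Erlin1 and Erlin2, which help turn over sterol-regulated proteins of the endoplasmic reticulum, fell by 1.04 and 0.82 with gavage and by 0.85 and 0.71 with intravenous cisplatin. Rnf145, a ubiquitin ligase that acts on SCAP, rose by 0.72 and 0.80.

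Among 23 tested of 25 LXR partners, cholesterol transport and oxysterol genes, 11 rose and 6 fell with gavage and 11 rose and 4 fell with intravenous cisplatin (2 fell without water replicate 3), with medians of 0.41 and 0.28. Of all features 29.5% and 26.1% rose and 30.2% and 32.6% fell. On the spike-in scale 18 rose and 0 fell in each. There 62.1% and 53.6% of all features rose and 9.81% and 9.47% fell. Lcat, which esterifies cholesterol on HDL, rose by 1.79 ± 0.12 and 1.70 ± 0.12. Scarb1, the HDL receptor, rose by 1.59 and 0.95, the oxysterol hydroxylase Cyp7b1 by 1.38 and 0.86, and the cholesteryl ester hydrolase Nceh1 by 0.51 and 0.64. Lpcat3, a phospholipid-remodelling LXR target, fell by 0.89 and by 0.54, and the sterol carrier Osbpl2 by 0.54 and by 0.81.

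The 32 tested of 36 other fatty acid and triglyceride synthesis genes went both ways, with 11 rises and 15 falls with gavage and 11 and 13 with intravenous cisplatin, and medians of -0.10 and 0.00. Of all features 29.5% and 26.1% rose and 30.2% and 32.6% fell. On the spike-in scale there were 18 rises and 6 falls, and 18 and 3. There 62.1% and 53.6% of all features rose and 9.81% and 9.47% fell. Scd2, a second stearoyl-CoA desaturase that was well above background on all 12 arrays, read 2.23, 2.03 and 2.69 with gavage water and 9.66, 10.2 and 8.33 with gavage cisplatin. It read 1.89, 2.23 and 1.72 with intravenous water and 10.1, 9.63 and 6.33 with intravenous cisplatin, so that all cisplatin arrays were above all water arrays. Scd2 rose by 2.02 ± 0.19 (4.07-fold, adjusted p = 1.24e-05) and 2.14 ± 0.19 (4.40-fold, adjusted p = 1.56e-05). Probes of close paralogs such as Scd and Scd2 can share transcripts, so their values are uncertain singly. The acyl-CoA synthetase genes Acsl1 and Acsl5, named here for their small p, moved in opposite directions. Acsl1, which feeds fatty acids to oxidation and storage, fell by 2.87 and by 2.06, and Acsl5 rose by 1.98 and 1.69. Elovl1, an elongase of very long chains, fell by 1.19 and by 0.98. In the comparison of the experiments 0 genes of these 4 lists passed.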

How the data were processed

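Spot values came from Agilent Feature Extraction 10.7, as the submitters' processing notes state. Per the file headers, the authors' deposited intensity is the processed spot signal, from which background was subtracted on each array and which was not scaled across arrays. Raw median intensities of spot and surround, also deposited, served for the normexp alternative. The authors' deposited value table held a linear ratio, which matched that intensity over the array's 75th percentile.

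Accessions were matched to gene symbols in a RefSeq table of GRCr8, which gave 28193 of 61537 probes 1 symbol and 33344 none. The array design refers to rn4, and promoter windows are those of GRCr8. The log2 processed intensity minus the array's 75th percentile was used without 1439 control spots and 82 uneven spots, and the probe with the highest mean over 12 arrays stood for a gene. Between 66.1% and 73.9% of probes per array were well above background. Of 45433 features, 32215 were so throughout some group of 3 arrays and were tested. The 4 group means were fitted to 12 arrays with limma 3.58.1 in R 4.3.3 (two-sided, 8 residual degrees of freedom, Benjamini-Hochberg over all features, call at 0.05), and the scripts were tested on simulated data. The number of arrays limits the precision. Array values are given for genes past the test with an absolute log2 change of 1 or more, and for others as stated. From each further gene list the text names up to 4 with the smallest p in each comparison. The genes and lists were chosen with earlier results of these data known. Further members of the pathway are not reported here. Alternatives covered scaling, background correction, filters, probes, slide and replicate blocks, array weights, and each array left out.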

Additional observations from a re-analysis of the deposited data

How the results depend on the processing

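Of 25 alternatives, 12 leave out an array each. Scaling to the spike-in RNAs gave 22 rises, 3 falls and a median of 0.5574 for the 30 genes with gavage, 16 rises, 0 falls and a median of 0.4748 with intravenous cisplatin, and a median of 0.1613 between the water groups. Signs that turned on that scale with gavage were those of Acat2 (0.57), Hmgcs1 (0.65), Idi1 (0.43), Fdft1 (0.55), Lss (0.0321), Tm7sf2 (0.0404), Nsdhl (0.61), Hsd17b7 (0.44), Ebp (0.30), Scap (0.48), Insig1 (0.0728), Acly (0.39) and Acaca (0.50). With intravenous cisplatin they were Acat2 (0.50), Hmgcs1 (0.56), Idi1 (0.0750), Lss (0.0601), Tm7sf2 (0.0545), Ebp (0.24), Hsd17b7 (0.24), Sc5d (0.27), Insig1 (0.28) and Fasn (0.45), and Acaca turned with the mean of its probes (0.16). Going from the main scaling to the spike-in scaling adds the same amount to all features of an array. Why the median of all features lay higher with cisplatin on the spike-in scale was not tested. Between the water groups 1 gene rose, Fdft1, when only those 6 arrays were fitted and with array weights, and in the difference of effects 1 fell, Fdft1, with array weights. Leaving out arrays gave 0 to 1 such rises and 0 to 1 such falls (Fdft1 without gavage cisplatin replicate 1, Abca1 without intravenous cisplatin replicate 1). It gave 6 rises and 9 to 10 falls with gavage and 6 rises and 8 to 12 falls with intravenous cisplatin.

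Replicate numbers did not pair the samples, as deviations of same-numbered arrays correlated at -0.111 to 0.0634. With the replicate block 6 genes rose and 9 fell with gavage and 6 rose and 12 fell with intravenous cisplatin. The Acly fall with gavage was lost (-0.26, adjusted p = 0.0958) and Hsd17b7 fell with intravenous cisplatin (-0.32, adjusted p = 0.0385). The block gives no value between the water groups. When slide is fitted as a fixed block, the intravenous effect and the difference cannot be estimated, and the gavage values rest on slide 1, where the cisplatin arm is 1 array assumed to vary like the others. The values there were -0.43 for Lss, -0.49 for Tm7sf2, -0.22 for Ebp and -0.52 for Fdft1, and no call is drawn from them. Slide 3 held only intravenous cisplatin arrays, so slide and group cannot be told apart there. A fit to 6 arrays gives no difference of effects. For dim probes such as Scd the signal over background limits what can be seen.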
